A study of Mus musculus with 2 samples.

Results

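The Fc receptors and the adaptors that signal for them were followed through 6 genes, Fcgr1, Fcgr2b, Fcgr3, Fcer1g, Tyrobp and Syk, chosen by symbol out of the 27998 gene identifiers of the count tables. All 6 were found once in both libraries. The material was mouse leukaemia cells that carry the MLL-AF9 fusion, a driver of acute myeloid leukaemia, together with the nuclease Cas9, and both cultures grew in RPMI medium with serum and interleukin-3 (IL-3) at 10 ng/ml. The Renilla library came from cells with a control sgRNA against Renilla luciferase, and the Jumonji library from cells whose sgRNA was directed at the Jumonji domain of Jmjd1c, a gene of the JmjC histone demethylase family. There was 1 library per condition, so the differences below have no check by replicates, and no test was made. How many guides, clones or animals lie behind each library is not stated.

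Fc gamma receptors bind the constant part of IgG antibodies on the surface of myeloid cells. Fcgr1 and Fcgr3 are activating receptors that have no signalling motif of their own and depend on the chain encoded by Fcer1g, which carries an immunoreceptor tyrosine-based activation motif (ITAM). Tyrobp, also called DAP12, is a second ITAM adaptor and serves many other myeloid receptors. Src family kinases phosphorylate the ITAM, the kinase Syk then docks on it, and Fcgr2b opposes the signal through an inhibitory motif that recruits phosphatases.

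Of the 6 genes, Fcgr2b, Fcgr3 and Fcer1g lie on the minus strand of mouse chromosome 1 within 275.7 kb of each other (build mm10, annotation GENCODE M21). Fcgr2b spans chr1:170958617-170976547, Fcgr3 spans chr1:171051174-171064935 and Fcer1g spans chr1:171229572-171234365. Fcgr1 lies at chr3:96282909-96293969 on the minus strand, Tyrobp at chr7:30413760-30417585 and Syk at chr13:52583173-52648792, both on the plus strand. An antisense transcript, Gm38204, overlaps Fcgr2b, and Fcgr3 hosts the microRNA gene Mir6546. Whether the counting used strand is not stated in the labels. The coding sequences of the low-affinity receptors are related, but of 1467 stretches of 50 bases in the last 500 bases of the Fcgr2b transcripts, the part read by a 3′ kit, 33 (2.25%) also occurred in an Fcgr3 transcript. No such stretch of Fcgr3 occurred in an Fcgr2b transcript, and none was shared between any other 2 of the 6 genes.

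The promoters of 3 genes are shown, each of which had a higher level in the Jumonji library. Those of Fcgr1 and Fcgr3 hold the letters of the core bound by PU.1, a master transcription factor of myeloid cells. That of Fcer1g does not. The part of this core in the levels was not tested. Sequences are from RefSeq (build GRCm38.p6), read 5′ to 3′ on the minus strand up to the last base before the annotated start. Bases that the annotation places in an exon were left out. Capitals mark the PU.1 core, searched as GAGGAA on both strands, so that TTCCTC is a match on the opposite strand.
Fcgr1, chr3:96293970-96294219: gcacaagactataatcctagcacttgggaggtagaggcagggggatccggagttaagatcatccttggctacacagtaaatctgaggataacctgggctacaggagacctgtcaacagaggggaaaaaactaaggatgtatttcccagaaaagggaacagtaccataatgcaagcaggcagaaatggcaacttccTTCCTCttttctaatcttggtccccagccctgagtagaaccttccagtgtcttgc
Fcgr3, chr1:171059404-171059626: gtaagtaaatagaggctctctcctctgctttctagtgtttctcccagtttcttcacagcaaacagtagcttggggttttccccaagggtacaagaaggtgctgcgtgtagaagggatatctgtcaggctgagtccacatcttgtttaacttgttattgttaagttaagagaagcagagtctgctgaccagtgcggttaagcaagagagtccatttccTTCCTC
Fcer1g, chr1:171234366-171234599: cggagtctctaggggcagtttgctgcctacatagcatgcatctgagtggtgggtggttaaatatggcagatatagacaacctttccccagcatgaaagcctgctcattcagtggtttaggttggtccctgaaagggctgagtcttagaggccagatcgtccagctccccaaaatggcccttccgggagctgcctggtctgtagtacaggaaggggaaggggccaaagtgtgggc
In Fcgr1 the core began 55 bases before the start. In Fcgr3 the core began 6 bases before the RefSeq start used, which lies inside the GENCODE M21 span given above. The printed Fcgr1 and Fcer1g windows instead end at the edge of their spans, so the 3 windows are not alike in position. No GAGGAA on either strand was in the Fcer1g window. Of 32851 RefSeq promoters, 7639 (23.3%) held the PU.1 core in the 250 bases before the start. Promoters were listed for 5 of the 6 genes. The Fcgr2b window did not hold it, and of the Syk windows 1 held the PU.1 core, 9 bases before its start. A match is a description of letters and says nothing of binding in these cells.

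The Renilla library held 608 kept cells with 14418743 unique molecular identifiers (UMIs, tags that mark single RNA molecules) and a median of 23528 per cell. The Jumonji library held 575 kept cells with 12809661 UMIs and a median of 22123. No barcode was shared between the libraries. Jmjd1c itself had 140 CPM (UMIs scaled to a common library total) in Renilla cells and 112 in Jumonji cells, which does not check the guide, since a 3′ count does not read the cut. Of the lymphoid markers, Ms4a1, Pax5, Cd3e, Cd3d, Cd3g, Ncr1 and Eomes had no UMI in either library. Others of those lists were seen, with 392 Renilla and 357 Jumonji UMIs of Nkg7, 52 and 29 of Lck, 23 and 8 of Cd79b, and 16 and 8 of Vpreb1. The 12 neutrophil markers summed to 156 CPM in Renilla cells and 939 in Jumonji cells, with Ltf and Retnlg at 0 in both. S100a8, with 927 Renilla and 6378 Jumonji UMIs, and S100a9, with 602 and 4319, make up most of this sum. Camp went the other way, with 248 and 65 UMIs, and Csf3r had 64 and 65. The 12 monocyte and macrophage markers summed to 524 and 540 CPM, with Mertk and C1qa at 0 in both. Of the 6 that reached 100 UMIs, 3 had a Jumonji level at least 2-fold above the Renilla level and 1 a level at least 2-fold below it. Over all genes with at least 100 UMIs these shares were 4.65% and 1.48%. Ly6c2, which makes up most of the sum, had 6345 UMIs in the Renilla and 4767 in the Jumonji library, and Ccr2 had 365 and 146. Csf1r, a cytokine receptor of macrophages, had 26 and 164, Adgre1 had 583 and 1378, and Cd68 had 135 and 309. Csf1r thus reached 100 UMIs only with those of the Jumonji library. The part of these neutrophil, monocyte and macrophage genes in the results below was not tested.

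All 6 genes had a higher CPM in the Jumonji library, by folds from 1.38 for Fcgr1 to 2.14 for Fcer1g. Of the 8959 genes with at least 100 UMIs over both libraries, 4.65% had a Jumonji level at least 2-fold above the Renilla level and 1.48% one at least 2-fold below it, and at 1.5-fold the shares were 9.91% and 7.89%. Of the 6 genes, 3 were at least 2-fold higher, 5 were at least 1.5-fold higher and none was lower. The 6 were chosen with earlier results of these data known, so the shares of all genes are given for scale only. The median log2 ratio was 0.96 over the 6 genes and -0.06 over all 8959. Without cluster 4, a group of cells described below, 2 of the 6 were at least 2-fold higher, where 3.45% of all genes were. As a mean of the ratios within the 6 clusters described below, 0 of the 6 reached 2-fold, and as a mean over single cells 4 did.

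The 2 adaptors had the highest ratios, although the interval of Fcgr2b, given below, also holds their values. Fcer1g had 548 CPM (95% Poisson interval 536 to 561) in Renilla cells and 1174 CPM (1155 to 1193) in Jumonji cells, a log2 ratio of 1.10 (1.06 to 1.14). Tyrobp had 1547 CPM (1526 to 1567) and 3301 CPM (3270 to 3333), a log2 ratio of 1.09 (1.07 to 1.12). The Jumonji level was thus more than double the Renilla level for each adaptor. These intervals, like all those of levels and ratios below, cover counting error only, not the spread between cells or between cultures. Intervals of shares of cells do not cover the spread between cultures either. Over the pooled cells the adaptors kept the same proportion, with 0.355 UMIs of Fcer1g per UMI of Tyrobp in Renilla cells and 0.356 in Jumonji cells. Within the 6 clusters described below they did not, with mean log2 ratios of 0.95 for Fcer1g and 0.76 for Tyrobp. In cluster 5 the ratios were 1.23 and 0.61, and in cluster 2 Tyrobp had the higher, at 0.83 against 0.75. Among all genes tested, 4.01% had a log2 ratio at least as high as Fcer1g and 4.02% one at least as high as Tyrobp.

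Fcgr3, the activating low-affinity IgG receptor, had 221 CPM (213 to 229) in Renilla cells and 413 CPM (402 to 424) in Jumonji cells. Its log2 ratio was 0.90 (0.84 to 0.97), below 2-fold with its whole interval. Fcgr2b, the inhibitory receptor, had 40.2 CPM (37.0 to 43.6) and 80.9 CPM (76.0 to 86.0), a log2 ratio of 1.01 (0.86 to 1.16) that lies at the 2-fold mark. The inhibitory and the activating low-affinity receptor were therefore both higher, with 0.182 UMIs of Fcgr2b per UMI of Fcgr3 in Renilla cells and 0.196 in Jumonji cells. Fcgr1, the high-affinity IgG receptor, was counted far less deeply, with 101 UMIs in Renilla cells and 124 in Jumonji cells. Its level was 7.00 CPM (5.71 to 8.51) in the former and 9.68 CPM (8.05 to 11.5) in the latter. Its log2 ratio of 0.47 (0.08 to 0.86) has a lower bound close to 0.

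Syk, the kinase that both adaptors recruit, had 29.7 CPM (26.9 to 32.6) in Renilla cells and 45.4 CPM (41.7 to 49.2) in Jumonji cells. Over the pooled cells the log2 ratio was 0.61 (0.43 to 0.80), and its interval lies wholly below that of either adaptor. Of the clusters described below, Syk lay below both adaptors in all but cluster 3, where it had 0.82 against 0.74 for Fcer1g and 0.56 for Tyrobp. In cells with at least 30000 UMIs its interval, 0.30 to 1.03, held the ratios of both adaptors. Against Syk, UMIs of Fcer1g went from 18.5 per Syk UMI in the Renilla library to 25.9 in the Jumonji library, and those of Tyrobp from 52.1 to 72.8.

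The difference in level was spread over most cells for the adaptors. For shares of cells, UMIs were drawn at random from each cell down to 10000. Shallower cells, 29 of the Renilla and 55 of the Jumonji library, were left out. Tyrobp was found in all 579 Renilla and all 520 Jumonji cells so thinned, with a median of 14 UMIs per cell in the Renilla library (10th to 90th percentile 8 to 25) and 32 in the Jumonji library (18 to 56.1). Fcer1g had a median of 5 UMIs (2 to 9) in Renilla cells and 11 (6 to 19) in Jumonji cells. Of the Jumonji cells, 94.4% lay above the Renilla median of Tyrobp and 91.3% above that of Fcer1g. The distributions still overlapped: 68.5% of Jumonji cells were above the Renilla 90th percentile for Tyrobp and 66.3% for Fcer1g.

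**Figure D1:**
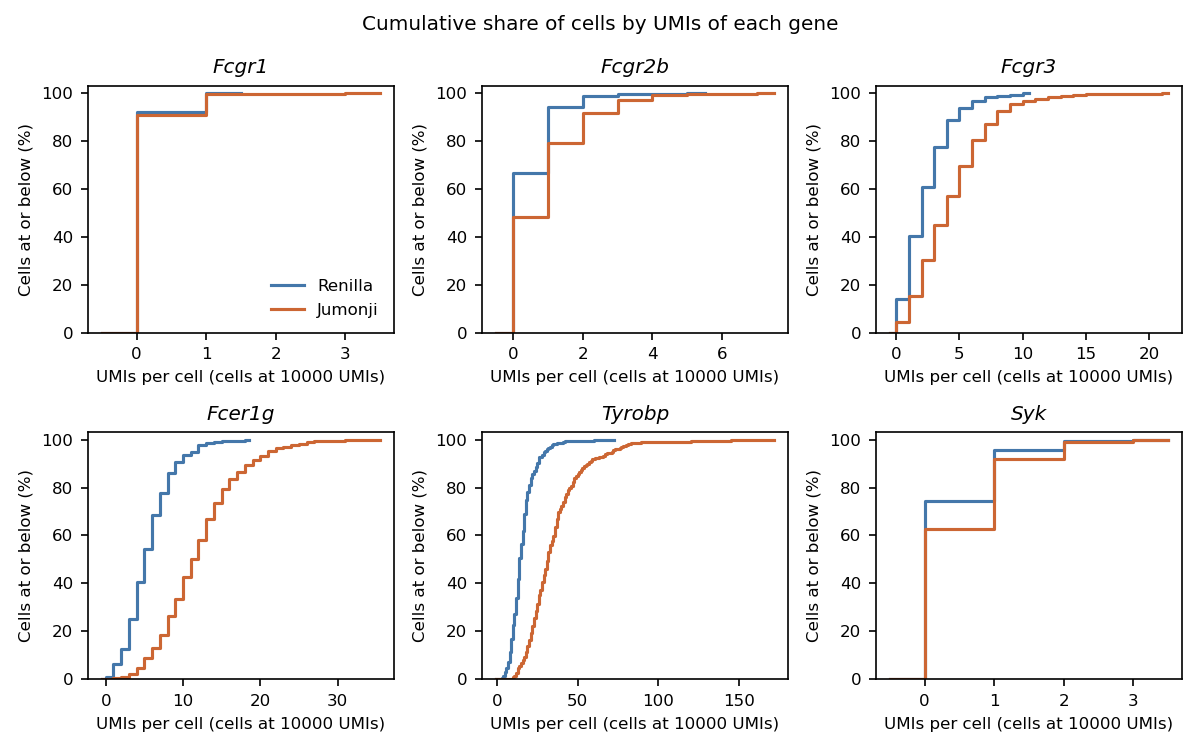
Cumulative share of cells (vertical axis, %) by UMIs of each of the 6 genes per cell (horizontal axis) after thinning to 10000 UMIs, for 579 Renilla and 520 Jumonji cells. The Jumonji curves of Tyrobp, Fcer1g and Fcgr3 lie to the right over nearly their whole length, while those of Fcgr1 almost coincide.

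The receptors were found in part of the cells. Fcgr3 had a UMI in 86.0% (exact 95% interval 82.9% to 88.7%) of thinned Renilla cells and 95.8% (93.7% to 97.3%) of thinned Jumonji cells, and its median went from 2 to 4 UMIs. Fcgr2b had a UMI in 33.2% (29.3% to 37.2%) and 51.7% (47.3% to 56.1%). Fcgr1 had a UMI in 7.94% (5.88% to 10.5%) and 9.23% (6.88% to 12.1%), and these intervals overlap. Syk had a UMI in 25.6% (22.1% to 29.3%) and 37.5% (33.3% to 41.8%). Before thinning the shares in the Renilla and Jumonji libraries were 95.7% and 99.7% for Fcgr3, 58.1% and 77.4% for Fcgr2b, 15.5% and 18.4% for Fcgr1, and 47.4% and 63.0% for Syk. Free RNA can give a UMI in a cell that does not express a gene. No cell type that should lack these genes was identified in the libraries, so its level was not measured.

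At 10000 UMIs a Renilla cell most often showed 3 of the 6 genes (45.4% of cells) and a Jumonji cell 4 of them (48.3%). All 6 were seen in 3 Renilla cells (0.518%) and 9 Jumonji cells (1.73%). All 3 receptors were seen in 14 Renilla cells (2.42%, 1.33% to 4.02%) and 24 Jumonji cells (4.62%, 2.98% to 6.79%).

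To give the difference by group of cells, both libraries were clustered together without the 6 genes, without the other genes of the pathway lists and without genes 1.5-fold or more apart between the libraries. The 6 clusters are called by number. Cluster 4 had the lowest depth, with a median of 14917 UMIs per cell, and held 29 Renilla cells (4.77%) and 170 Jumonji cells (29.6%). The low depth was that of its Jumonji cells, with a median of 14219 UMIs, against 20831 in its Renilla cells. Cluster 5 held 46 Renilla cells (7.57%) and 148 Jumonji cells (25.7%). Cluster 3 held 177 Renilla cells (29.1%) and 24 Jumonji cells (4.17%). Cells of a cluster still differed between the libraries. The neutrophil markers summed, in Renilla and Jumonji cells, to 18.8 and 299 CPM in cluster 1, 56.2 and 188 in cluster 2, 18.0 and 21.2 in cluster 3, 202 and 964 in cluster 4, 1689 and 1945 in cluster 5, and 35.5 and 1284 in cluster 6. The ratios within clusters are therefore not between cells that are alike in these genes.

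Fcer1g, Tyrobp and Fcgr3 were higher in the Jumonji cells of all 6 clusters, and every counting interval lay above 0. For Fcgr3 in cluster 3, with 24 Jumonji cells, the lower bound was 0.006, and the spread between cells is not in it. Their log2 ratios ranged over clusters from 0.74 to 1.23 for Fcer1g, from 0.56 to 1.03 for Tyrobp and from 0.27 to 1.19 for Fcgr3. Fcgr2b was higher in all 6 clusters (0.46 to 1.35), with 5 intervals above 0, and Syk in all 6 (0.24 to 0.82), with 4 intervals above 0. Fcgr1 was higher in 4 of 6 clusters, and none of its intervals lay apart from 0. The ratios within clusters averaged 0.76 for Tyrobp and 0.68 for Fcgr3, below the 1.09 and 0.90 of the pooled cells.

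Cluster 4 had the highest level of the adaptors and of Fcgr3 in both libraries. Tyrobp in the Renilla library was at 2766 CPM in cluster 4 and 1495 outside it, and in the Jumonji library at 4960 and 2882. Fcgr3 was at 448 and 211 CPM in the Renilla library, and at 628 and 358 in the Jumonji library. Fcer1g was at 795 and 538 CPM in the Renilla library, and at 1543 and 1080 in the Jumonji library. Each of these 3 genes was thus higher inside cluster 4 than outside it in both libraries. Fcgr2b did not follow them, with 39.3 CPM in cluster 4 and 40.2 outside in the Renilla library, and 75.4 and 82.3 in the Jumonji library. Leaving cluster 4 out gave log2 ratios of 1.01 for Fcer1g, 0.95 for Tyrobp and 0.76 for Fcgr3.

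**Figure D2:**
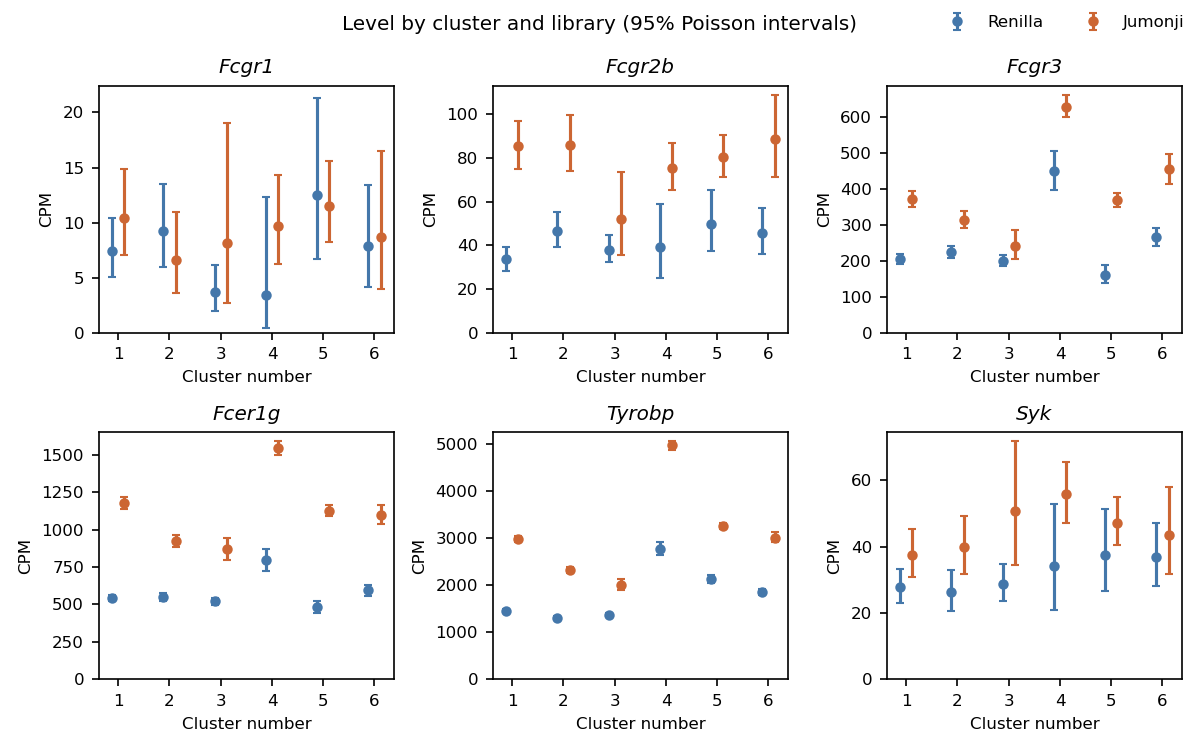
Level in CPM (vertical axis, from 0) of each of the 6 genes in the 6 clusters (horizontal axis) for the Renilla and Jumonji libraries, with 95% Poisson intervals as bars. Fcgr3, Fcer1g and Tyrobp are highest in cluster 4 of either library, whereas Fcgr2b is not, and the Jumonji point lies above the Renilla point in every cluster for all genes but Fcgr1.

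The size of the difference moved with the depth of the cells. Tyrobp had 1563 CPM in the 29 Renilla cells and 6634 CPM in the 55 Jumonji cells with under 10000 UMIs, a log2 ratio of 2.09 (1.92 to 2.25). In the 107 Renilla and 108 Jumonji cells with at least 30000 UMIs it had 1421 and 2448 CPM, a ratio of 0.78 (0.74 to 0.83). Over the same strata the ratio went from 2.24 to 0.82 for Fcer1g and from 2.44 to 0.54 for Fcgr3, whereas Fcgr2b went from 1.10 to 0.85. The correlation of level with the log of a cell's UMIs in the Jumonji library was -0.65 for Tyrobp, -0.59 for Fcer1g and -0.46 for Fcgr3 over 575 cells. In the Renilla library the correlations of the 6 genes lay between -0.07 and 0.13 over 608 cells. These 3 genes were thus lower in deeper Jumonji cells, and the part of depth in the pooled ratios was not tested beyond the strata.

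Across cells, the same 3 genes had the highest correlations with each other among the 15 pairs. Pearson r of the log level between Fcer1g and Tyrobp was 0.13 over 579 thinned Renilla cells and 0.44 over 520 thinned Jumonji cells. For Fcgr3 with Tyrobp r was 0.14 and 0.39, and for Fcgr3 with Fcer1g, the receptor and the chain it needs, 0.20 and 0.33. The other 12 pairs lay between -0.03 and 0.08 in Renilla cells and between -0.04 and 0.10 in Jumonji cells. Those pairs include a gene with few UMIs per cell, and at such counts a weak correlation is no finding. Cells of 1 library share its preparation, so these values describe the libraries and carry no p.

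**Figure D3:**
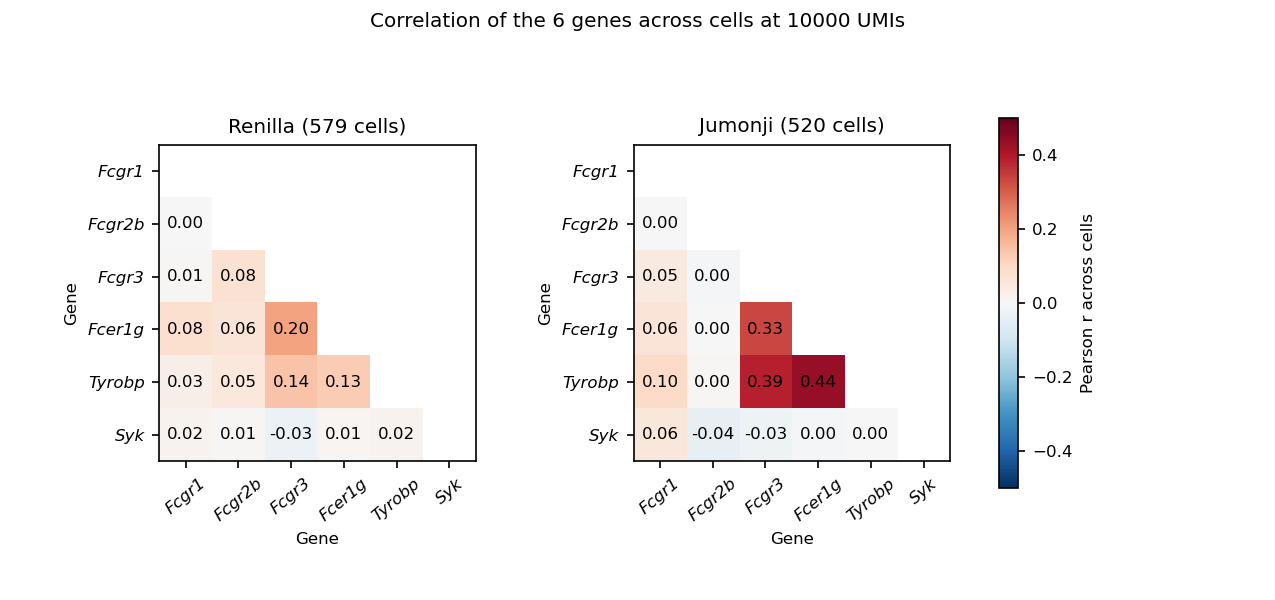
Pearson r between each pair of the 6 genes across cells thinned to 10000 UMIs, in the Renilla library (579 cells) and the Jumonji library (520 cells), with the colour scale from -0.5 to 0.5. The 3 pairs formed by Fcgr3, Fcer1g and Tyrobp have the highest values in both libraries, at 0.13 to 0.20 and at 0.33 to 0.44. Without cluster 4 this does not hold for Fcgr3 with Tyrobp in Renilla cells.

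Without cluster 4 the Renilla values were 0.10 for Fcer1g with Tyrobp, 0.07 for Fcgr3 with Tyrobp and 0.17 for Fcgr3 with Fcer1g. The pairs Fcgr1 with Fcer1g (0.09) and Fcgr2b with Fcgr3 (0.08) were then above that of Fcgr3 with Tyrobp. The Jumonji values were 0.36 for Fcer1g with Tyrobp, 0.25 for Fcgr3 with Tyrobp and 0.27 for Fcgr3 with Fcer1g. Within cluster 4 the Jumonji values were 0.33, 0.35 and 0.16 over its 129 thinned Jumonji cells. Of the 6589 genes found in at least 10% of thinned Jumonji cells, 2 had a higher r with Fcer1g than Tyrobp had. In the Renilla library 3 of 6664 genes had a higher r with Fcer1g than Fcgr3 had, and 35 a higher one than Tyrobp. Tyrobp had more such genes: 25 had a higher r with it than Fcer1g and 44 than Fcgr3 in Jumonji cells, and 255 and 193 in Renilla cells.

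The genes outside the 6 with the highest r were partly the same in both libraries. For Fcer1g, Itm2b, a membrane protein of wide expression, led both, at 0.27 in the Renilla and 0.50 in the Jumonji library. It was followed by Reep5 and H2-DMa (0.20 each) in the Renilla library and by Cyba (0.48), a subunit of the phagocyte NADPH oxidase, and the galectin Lgals3 (0.43) in the Jumonji library. For Fcgr3, Itm2b also led both, at 0.24 and 0.45, followed by Cd34 and Ostf1 (0.21 each) in Renilla cells and Lgals3 and Ypel3 (0.41 each) in Jumonji cells. Tyrobp was nearest to Tmsb4x (0.52), Ftl1 (0.48) and Arhgdib (0.40) in the Renilla library. In the Jumonji library it was nearest to Cd52 (0.67), a small surface glycoprotein of leukocytes, then Cyba (0.63) and Itm2b (0.61). For Fcgr1, Fcgr2b and Syk the highest r was 0.20 (Syk with Suv420h1 in the Renilla library), too weak to read at these counts.

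The rest of the pathway was read from 6 lists of 111 symbols, of which 62 had at least 100 UMIs over both libraries. The lists were chosen with earlier results of these data known, so the share of all genes is given for scale only. Of these 62, 25 were at least 2-fold higher with the Jumonji guide, where 4.65% of all genes were, and none was at least 2-fold lower. The median log2 ratio was 0.60. Without the 6 genes described above, 22 of 56 were at least 2-fold higher with a median of 0.55. Without cluster 4, 19 of 59 were at least 2-fold higher, where 3.45% of all genes were. Many of the genes counted as higher had under 100 Renilla UMIs and reached the minimum only with their Jumonji UMIs, as given by list below. These counts and medians thus partly follow from that minimum.

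Of 16 Fc receptor genes, 5 were measured and 3 were at least 2-fold higher, where 4.65% of all genes were. Of these 3, Fcgrt had 58 Renilla UMIs and reached the minimum only with its Jumonji UMIs. Fcgr4, the other activating IgG receptor that uses the Fcer1g chain, lies between Fcgr2b and Fcgr3 at chr1:171018920-171029761 and had 9.43 CPM in the Renilla and 36.9 CPM in the Jumonji library, a log2 ratio of 1.97 (1.69 to 2.25). Its difference was larger than that of any of the 3 IgG receptors above. Fcgrt, the neonatal Fc receptor that recycles IgG inside cells, had 4.02 and 12.8 CPM, a ratio of 1.67 (1.23 to 2.13). Fcer1a, the IgE-binding chain of mast cells and basophils that also uses Fcer1g, had no UMI in either library. Without cluster 4, 2 of the 5 were at least 2-fold higher, where 3.45% of all genes were.

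Among the adaptors, Hcst, also called DAP10, lies 126 bases from Tyrobp on the opposite strand (chr7:30417712-30419854). It had 30.2 CPM in Renilla cells and 62.3 in Jumonji cells, a log2 ratio of 1.05 (0.88 to 1.22). That ratio is close to the 1.09 of its neighbour. All 3 measured adaptors were at least 2-fold higher, where 4.65% of all genes were. Without cluster 4, 1 of the 3, Fcer1g, was at least 2-fold higher, where 3.45% of all genes were. The T cell chains Cd247, Cd3e, Cd3g and Cd3d had no UMI in either library.

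Receptors that signal through Fcer1g or Tyrobp were mostly higher. Of 23 listed symbols 7 were measured, and 6 were at least 2-fold higher, where 4.65% of all genes were. The median log2 ratio was 2.74. The minimum of 100 UMIs is summed over both libraries. Each of these 6 had under 100 Renilla UMIs, from 18 for Cd200r4 to 82 for Clec5a, and reached it only with its Jumonji UMIs. Their number and the median thus partly follow from that minimum. Clec4d, which reached it on 252 Renilla UMIs alone, was not 2-fold higher. Cd200r4 had 1.25 and 32.1 CPM, a ratio of 4.68 (4.01 to 5.45). Clec5a, a partner of Tyrobp, had 5.69 CPM in the Renilla and 38.0 in the Jumonji library, a ratio of 2.74 (2.40 to 3.10). Pilrb1 (2.89), Cd300lb (2.86), Clec4e (2.23) and Trem3 (1.89) were also higher, and Clec4d, a partner of Clec4e, lay just under 2-fold at 0.95 (0.72 to 1.18). Without cluster 4 the same number, 6 of 7, were at least 2-fold higher, where 3.45% of all genes were.

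Lyn, a Src family kinase that acts before Syk, was higher, and most of the chain after Syk lay near 0. Lyn had 32.5 and 73.8 CPM, a log2 ratio of 1.18 (1.02 to 1.35). Of 24 measured genes of the chain after Syk, 1 was at least 2-fold higher, a share near the 4.65% of all genes, and the median was 0.12. That gene was Lcp2, the scaffold SLP-76, with 19.9 and 45.0 CPM and a ratio of 1.18 (0.97 to 1.39). Prkcd followed at 0.98 (0.85 to 1.11) and the GTPase gene Rac2 at 0.54 (0.50 to 0.57). Sos1 (-0.57), Gab2 (-0.36) and Malt1 (-0.20) were lowest. Without cluster 4, 1 of 23 measured chain genes was at least 2-fold higher, again near the 3.45% of all genes.

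Genes of the list of inhibitory receptors and phosphatases, which also holds other signal proteins such as Dok2, were often higher as well. Of 24 listed genes 21 were measured and 11, Fcgr2b included, were at least 2-fold higher, where 4.65% of all genes were. The median was 1.01. Of these 11, Siglece, Siglecf, Pecam1, Ceacam1 and Lair1 had under 100 Renilla UMIs, from 22 for Siglece to 85 for Lair1. They reached the minimum only with their Jumonji UMIs. Pilra, the inhibitory counterpart of Pilrb1, had 8.67 and 77.2 CPM, a log2 ratio of 3.15 (2.89 to 3.43). Clec4a2, a lectin receptor with an inhibitory motif, had 20.9 and 107.5 CPM, a ratio of 2.36 (2.18 to 2.55). The others were Siglece (2.74), Lair1 (2.08), Siglecf (1.81), Sirpa (1.77), Cd300a (1.65), Ceacam1 (1.60), Dok2 (1.28) and Pecam1 (1.04). Cd33 lay at the 2-fold mark with 1.00 (0.92 to 1.08). The phosphatases that such receptors recruit differed less, with Ptpn6 (SHP-1) at 0.58 (0.49 to 0.67), Inpp5d (SHIP-1) at 0.28, Ptpn11 (SHP-2) at -0.23 and Inppl1 at -0.36. Without cluster 4, 9 of 19 measured genes were at least 2-fold higher, where 3.45% of all genes were.

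**Figure D4:**
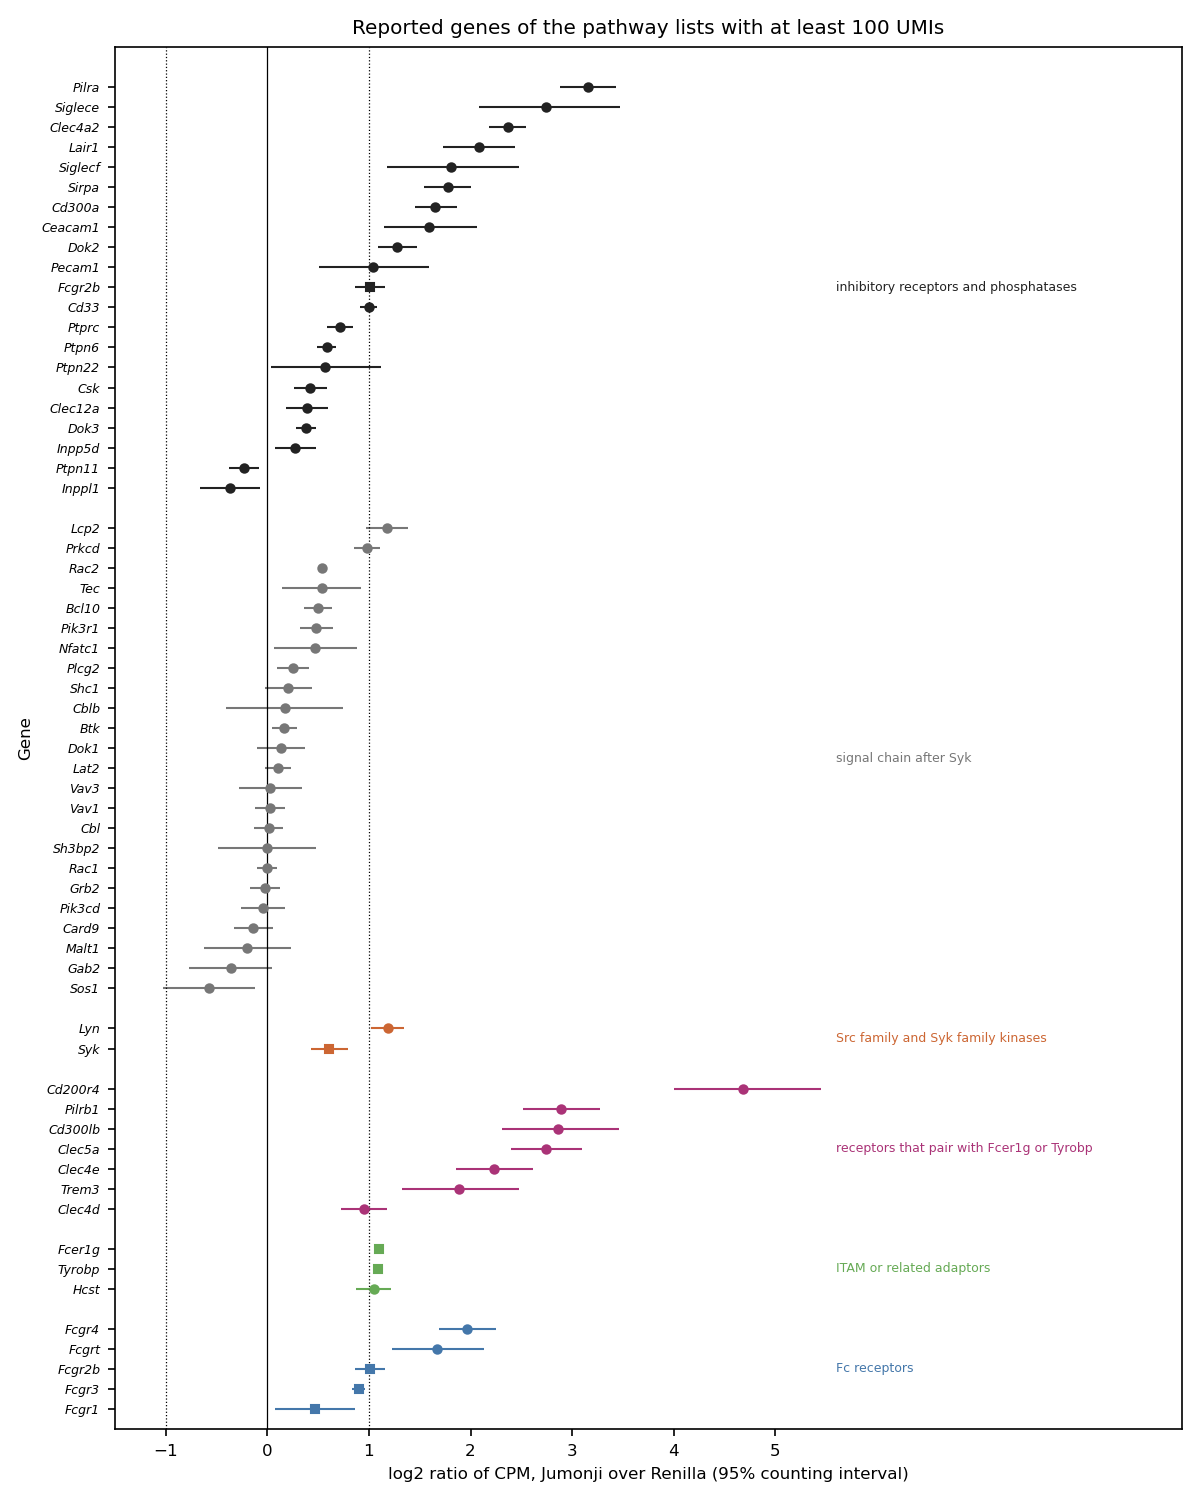
Log2 ratio of CPM, Jumonji over Renilla (horizontal axis), for the listed genes with at least 100 UMIs that are reported here, grouped by list, with 95% counting intervals as bars. Squares mark the 6 genes described above, and dotted lines mark 2-fold. Receptors, adaptors and Lyn lie to the right, most of the chain after Syk lies near 0, and Fcgr2b stands in 2 lists.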

How the data were processed

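Single-cell RNA was measured in 1 Renilla and 1 Jumonji library made with the 10x Chromium 3′ version 2 kit, per the labels' protocols. The authors deposited raw UMI counts per gene and barcode, made with Cell Ranger 1.3.1 on mm10 per the submitters' processing notes. Neither the release of the gene annotation nor how cell barcodes were called is given in the sources used here. Barcodes under 500 genes or over 10% mitochondrial UMIs were left out. Scrublet (scanpy 1.11.5) marked 10 Renilla and 4 Jumonji cells, which were kept. Counts were summed per library and scaled to CPM. Ratios carry exact 95% intervals of a ratio of Poisson counts, sums Poisson and shares Clopper-Pearson intervals. A 2-fold size rule at 100 UMIs stands in place of a test.

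Clustering used 2000 variable genes, 30 components, 15 neighbours and leidenalg 0.10.2 at resolution 0.6, and did not reproduce an earlier clustering of these data. The 6 genes and the lists were chosen with earlier results of these data known. Named were the 6 genes, Jmjd1c, list genes at least 2-fold apart, the 3 highest and 3 lowest of a list (not all are printed), and the 3 genes with the highest r per gene and library (for Fcgr1, Fcgr2b and Syk only summarised). Genes named at 0 UMIs and in the closing observations were chosen after their values were seen. The ratio and its interval were tested on simulated Poisson counts, which hold no spread between cells. Some genes and motifs of the lists are not reported here. Of the identifiers, 27722 were found in GENCODE M21.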

Additional observations from a re-analysis of the deposited data

Results flagged for a closer look

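The 43 Renilla and 77 Jumonji barcodes with over 10% mitochondrial UMIs were left out of the comparisons above. All 6 genes had a higher level in the excluded Jumonji than in the excluded Renilla barcodes, and for 4 of them the interval of the ratio lay above 0. It included 0 for Fcgr1, with 7.92 CPM in Renilla and 21.3 in Jumonji barcodes, and for Syk, with 27.7 and 49.8. In the excluded Jumonji barcodes Fcer1g had 3653 CPM, against 420 in the excluded Renilla barcodes and 1174 in the kept Jumonji cells. Tyrobp had 4727 CPM, against 879 and 3301. Fcgr3 had 1093 CPM, against 348 and 413. Fcgr2b had 213.4 CPM, against 79.2 and 80.9. The log2 ratio of excluded Jumonji over excluded Renilla barcodes was 3.12 (2.84 to 3.42) for Fcer1g and 2.43 (2.23 to 2.63) for Tyrobp. The excluded barcodes held 252585 Renilla and 421807 Jumonji UMIs in all, and the 2 sets also differ in depth and in number.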

How the results depend on the processing

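Each of the 6 genes stayed higher in the Jumonji library under every alternative run, with log2 ratios of 0.30 to 0.52 for Fcgr1, 0.88 to 1.07 for Fcgr2b, 0.68 to 1.25 for Fcgr3, 0.95 to 1.36 for Fcer1g, 0.76 to 1.31 for Tyrobp and 0.52 to 0.67 for Syk. Of 54 such values 20 left the counting interval, and no direction reversed. In the order Fcgr3, Fcer1g, Tyrobp, the log2 ratios were 0.84, 1.04 and 1.06 with at most 5% mitochondrial UMIs, 0.76, 1.01 and 0.95 without cluster 4, 1.13, 1.27 and 1.28 as a mean over cells, 0.68, 0.95 and 0.76 as a mean of clusters and 1.25, 1.36 and 1.31 as a mean of depth strata. For Fcer1g and Tyrobp they were 1.20 and 1.12 with all deposited barcodes and 1.16 and 1.15 when scaled by the median ratio, and for Tyrobp 1.15 in thinned cells. At 1.5-fold, 5 genes were higher in place of 3. At 2-fold, 0 were higher as a mean of clusters, 4 as a mean over cells and 4 as a mean of depth strata, 2 without cluster 4, where Tyrobp fell short, and 2 without marked doublets, where Fcgr2b fell short. The cause of these moves was not tested.

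Leaving out cluster 4, averaging over depth strata and the counts from averages were chosen after seeing the data. Leaving out cluster 6 of an earlier clustering was not run, since that clustering was not rebuilt. No paired analysis was possible because each condition had 1 library. Depth limits Fcgr1 most, with a fold interval of 1.05 to 1.82.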

Other observations

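Genes with the lowest r to Tyrobp across thinned Jumonji cells were Ran (-0.56), Ptma (-0.55) and Ranbp1 (-0.53), and those with the lowest r to Fcgr3 were Ptma and Ranbp1 (-0.43 each) and Dtymk (-0.35). Ran and Ranbp1 encode parts of the nuclear transport machinery, and Dtymk an enzyme of dTTP synthesis. In the Renilla library the lowest r to Tyrobp were those of Hsp90aa1 (-0.37), mt-Nd1 (-0.36) and Ncl (-0.35). Fcer1g had its lowest r in the Jumonji library with the ribosomal protein genes Rps2 (-0.40) and Rplp1 (-0.38) and with Atp5g1 (-0.36). These values describe 520 and 579 cells of 1 library each.

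The spread of Tyrobp between thinned cells, as variance over mean, was 3.61 in Renilla cells and 9.58 in Jumonji cells, and the highest cell had 72 and 171 UMIs. Where cells differ beyond counting, variance over mean rises with the mean even if the relative spread stays the same. The excess over counting divided by the mean was 0.165 and 0.243 for Tyrobp, 0.109 and 0.101 for Fcer1g, and 0.228 and 0.224 for Fcgr3.

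Fgr, a Src family kinase of myeloid cells, had 1 UMI in the Renilla and 30 in the Jumonji library, and Clec4n, a partner of Fcer1g, had 1 and 30, both under the minimum of 100 UMIs. Other kinases listed with Fgr and also under the minimum went the other way, with 52 and 29 UMIs of Lck, 20 and 9 of Fyn, and 9 and 7 of Yes1. Src had 3 and 7.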
